A study of Mus musculus with 20 samples.

Results

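The mitochondrial ribosomal protein genes were taken as the protein-coding genes of the expression table whose GENCODE mouse symbol starts with Mrpl or Mrps. Mrpl39 and Mrps6 were left out, since they lie in the duplicated region and are present in 3 copies in the mutant hearts. This gave 76 of the 48795 genes in the table, of which 48 carry an Mrpl symbol and are named for the large subunit and 28 carry an Mrps symbol and are named for the small subunit. RNA was sequenced from 20 whole hearts of mouse embryos at E13.5, with 10 hearts labelled WT, 5 labelled Dp1Tyb and 5 labelled Dp1TybDyrk1a+/+/-. Dp1Tyb is a mouse model of Down syndrome in which the stretch of chromosome 16 from Lipi to Zbtb21 is duplicated, so that its genes are in 3 copies in every cell. Dp1TybDyrk1a+/+/- hearts carry the same duplication together with the Dyrk1a tm1Mla null allele, which returns the functional copies of the kinase gene Dyrk1a to 2. Both alleles are in the germ line, so every cell of the heart carries them. The Dp1TybDyrk1a+/+/- mice were kept as a strain of their own with WT littermates as controls, so the mutant groups also differ in colony and litters, the WT hearts come from both sources, and these differences cannot be told apart from that in Dyrk1a. The comparisons asked how the genes differed with the duplication and with the label for the third functional copy of Dyrk1a. Each value is the log2 of a normalized count deposited by the authors, and a difference between genotypes is given as a log2 fold change.

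Mitochondria carry their own ribosome, which translates the few proteins encoded by mitochondrial DNA, all of them parts of the respiratory chain and ATP synthase. Its ribosomal RNAs come from mitochondrial DNA, whereas all of its proteins are encoded in the nucleus, made in the cytosol and imported. The large subunit joins the amino acids into protein and the small subunit holds the mRNA and decodes it. Heart muscle depends on oxidative phosphorylation, and inherited defects in several of these proteins cause disease of the heart.

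Promoters of nuclear genes for mitochondrial proteins often hold binding motifs of the ETS factor GABP, of NRF1 and of YY1. Here the motifs were searched as the letters CCGGAAG for ETS and AAGATGGC for YY1 and as the NRF1 palindrome that stands in capitals in the Mrpl39 sequence given here, on both strands, in RefSeq windows of 300 bases on GRCm38.p6, from 250 bases before the start of a gene to 50 after it. The RefSeq table held a window for 67 of the 76 genes. The ETS letters stood in 26 of the 67 windows (38.8%), against 8.86% of all 32851 windows of the table and 18.8% of the 10705 windows of protein-coding genes tested here. The YY1 letters stood in 12 windows (17.9%), against 2.75% of all windows and 4.91% of those of tested coding genes. The NRF1 letters stood in 2 windows (2.99%), against 0.971% and 2.20%. The ETS motif was present in 15 large subunit and 11 small subunit genes. The 250 bases before the start of the transcript that RefSeq's window is set on are shown for the 3 genes whose values the results turn on (Mrpl18, Mrpl51 and Mrps17), for the 2 three-copy subunit genes and for three-copy Gabpa, which encodes the DNA-binding subunit of GABP. For Mrpl18, Mrps17 and Gabpa that start lies inside the interval of the whole gene, so the bases shown lie wholly (Mrpl18) or partly (Mrps17 and Gabpa) within it. Each is given in the direction of transcription, with motif letters in capitals, at chr17:12916092-12916341 (minus strand), chr6:125191950-125192199 (plus strand), chr5:129715247-129715496 (plus strand), chr16:84735245-84735494 (minus strand), chr16:92058086-92058335 (plus strand) and chr16:84834874-84835123 (plus strand).
Mrpl18: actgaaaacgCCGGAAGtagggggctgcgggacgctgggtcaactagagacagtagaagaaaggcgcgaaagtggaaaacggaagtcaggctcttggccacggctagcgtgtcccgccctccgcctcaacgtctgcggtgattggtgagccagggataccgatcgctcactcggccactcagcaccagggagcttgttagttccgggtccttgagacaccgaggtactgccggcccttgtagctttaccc
Mrpl51: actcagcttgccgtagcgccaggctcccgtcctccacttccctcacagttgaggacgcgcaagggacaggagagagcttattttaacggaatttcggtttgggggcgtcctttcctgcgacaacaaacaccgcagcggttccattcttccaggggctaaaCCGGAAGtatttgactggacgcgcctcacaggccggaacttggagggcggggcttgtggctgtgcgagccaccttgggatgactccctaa
Mrps17: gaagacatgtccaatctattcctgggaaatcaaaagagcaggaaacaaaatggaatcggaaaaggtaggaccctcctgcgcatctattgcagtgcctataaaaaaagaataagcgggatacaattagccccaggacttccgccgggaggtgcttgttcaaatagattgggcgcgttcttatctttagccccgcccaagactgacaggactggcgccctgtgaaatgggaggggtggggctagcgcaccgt
Mrpl39: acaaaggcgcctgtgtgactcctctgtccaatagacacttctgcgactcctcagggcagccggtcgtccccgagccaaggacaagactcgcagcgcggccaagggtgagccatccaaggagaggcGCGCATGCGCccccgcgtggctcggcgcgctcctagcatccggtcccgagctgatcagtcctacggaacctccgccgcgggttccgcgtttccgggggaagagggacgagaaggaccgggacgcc
Mrps6: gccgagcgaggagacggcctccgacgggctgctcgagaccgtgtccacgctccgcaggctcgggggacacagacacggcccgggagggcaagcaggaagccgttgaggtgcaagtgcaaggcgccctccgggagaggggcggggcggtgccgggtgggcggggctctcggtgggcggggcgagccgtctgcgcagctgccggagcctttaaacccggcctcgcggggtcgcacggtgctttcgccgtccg
Gabpa: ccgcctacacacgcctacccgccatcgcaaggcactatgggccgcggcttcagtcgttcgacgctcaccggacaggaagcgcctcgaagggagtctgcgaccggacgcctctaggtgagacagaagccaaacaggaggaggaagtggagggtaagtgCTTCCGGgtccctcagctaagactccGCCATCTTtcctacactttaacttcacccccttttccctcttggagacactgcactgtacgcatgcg
The capitals mark the ETS motif in Mrpl18 and Mrpl51, and the NRF1 motif, which reads the same on both strands, in Mrpl39. In Gabpa they mark the ETS motif and then the YY1 motif, both on the opposite strand. No motif stood in the windows of Mrps17 and Mrps6, which says only that these letters are not in these bases.

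Heart A15, labelled Dp1TybDyrk1a+/+/-, stood apart from the other hearts. The SD of its deviations from the mean of each gene was 0.21 over all 15304 genes tested, against 0.0595 to 0.135 in the other hearts. In A15 the mitochondrially encoded protein genes stood a median of 1.13 above their means, cytosolic ribosomal protein genes 0.163 below, and transcripts of 8000 bases or more 0.136 above. The counts and medians of the 76 genes are therefore also given without A15. WT heart A10 had the next largest spread, 0.135, with the mitochondrially encoded genes 0.505 above their means. The libraries ran in sequencing lanes 3, 6 and 7, and 3 of the 5 Dp1TybDyrk1a+/+/- hearts, A15 among them, ran in lane 7, together with 2 of the 10 WT and 1 of the 5 Dp1Tyb hearts. Cardiomyocyte marker genes such as Tnnt2 and Myh6 averaged 14.93 to 15.26 in the 20 hearts and liver and lung markers averaged 3.92 to 5.13. Globin and other erythroid genes varied more, from 11.86 to 13.87. Dyrk1a itself ranged from 11.28 to 11.43 in WT, 11.65 to 11.75 in Dp1Tyb and 11.70 to 11.85 in Dp1TybDyrk1a+/+/- hearts. A value for the whole gene does not separate RNA of the null allele from that of the intact copies, so it did not check the label Dp1TybDyrk1a+/+/-. The paper reports from RNA sequencing that a Dyrk1a allele of this strain had exons deleted. By mass spectrometry it reports more DYRK1A protein in Dp1Tyb than in Dp1TybDyrk1a+/+/- hearts.

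All 76 genes passed the filter on low values, a mean normalized count of at least 10. Their mean normalized counts ran from 49.6 for Mrpl23 to 1553 for Mrpl42. Per kilobase of transcript, using the length of the GENCODE canonical transcript, the median log2 level was 8.26 in the large subunit and 8.18 in the small subunit, and the ranges ran from 6.16 to 10.96 and from 6.21 to 10.42, so both subunits covered much the same levels. The highest levels per kilobase in the large subunit were those of Mrpl42 (10.96), a protein found only in mitochondrial ribosomes, and of Mrpl33 (9.71) and Mrpl28 (9.34), which have bacterial relatives. The lowest were Mrpl17 (6.16) and Mrpl23 (6.16). In the small subunit the highest were Mrps21 (10.42), Mrps23 (9.23) and Mrps33 (9.06), and the lowest Mrps26 (6.21) and Mrps25 (6.28). The level of Mrpl23 is uncertain. A processed pseudogene, Mrpl23-ps1, matches its transcript at 96.6% of 556 bases and held 88.1% of the summed counts of the pair. The pseudogene Gm5776 matches Mrps33 at 99.7% of 321 bases and had a mean normalized count of 98.4 beside 631 for Mrps33. The transcripts of Mrps34 and Nme3, neighbours on chromosome 17, share 868 bases at 99.9% identity, so reads there may have been split between them. A transcript of Mrpl39 matches one of a gene on another chromosome at 99.5% of 642 bases.

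**Figure D1:**
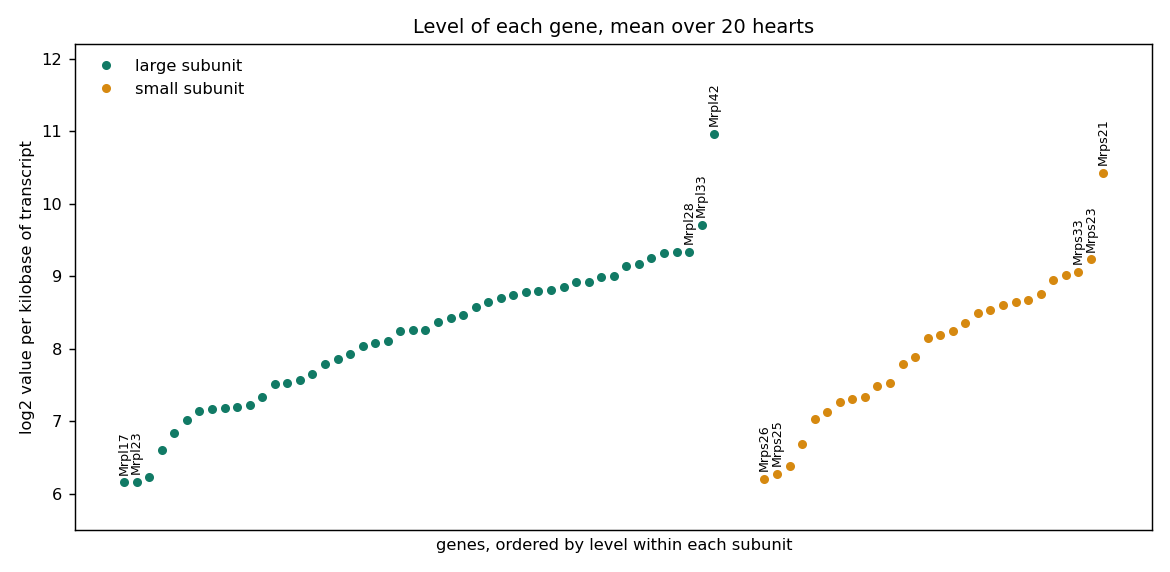
Level of each of the 76 genes per kilobase of its transcript (log2 of the normalized count, mean over 20 hearts), ordered within the large subunit (48 genes) and the small subunit (28 genes). The subunits cover a similar range, and the 3 highest and 2 lowest genes of each are named.

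Over the WT hearts the median SD of the 76 genes was 0.0529 on the log2 scale, against 0.0538 over all genes tested. Mrps17, a protein of the small subunit that binds its ribosomal RNA, had the smallest SD of all 76 genes (0.0145, n = 10), followed by Mrpl1 (0.0267). Mrps14 (0.145) and Mrps15 (0.121), both small subunit proteins with bacterial relatives, had the largest. Heart A10 was the lowest WT heart for Mrps14 (8.33, where the other WT hearts were at 8.71 to 8.84) and the highest for Mrps15 (9.46, where the others were at 9.03 to 9.12). In the Dp1TybDyrk1a+/+/- hearts the median SD was 0.0749 with A15 and 0.0339 without it.

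Averaged over the 76 genes, the log2 value came to 9.043 ± 0.019 (SD, n = 10) in WT, 9.034 ± 0.024 (n = 5) in Dp1Tyb and 9.051 ± 0.056 (n = 5) in Dp1TybDyrk1a+/+/- hearts. The WT hearts ran from 9.003 to 9.073 with a median of 9.046. In Dp1Tyb, 4 hearts lay at 9.038, 9.042, 9.047 and 9.051, and heart A12 lay at 8.991, below all WT hearts. In Dp1TybDyrk1a+/+/-, 4 hearts lay at 9.060, 9.066, 9.078 and 9.095, and A15 lay at 8.954, the lowest of all 20. A15 was the lowest heart for 39 of the 76 genes (51.3%), where it was the lowest for 26.0% of all genes tested. A12 was the lowest for 11 (14.5%), against 5.33% of all genes. The differences between group means were -0.0091 for Dp1Tyb versus WT, 0.0075 for the hearts labelled Dp1TybDyrk1a+/+/- versus WT and -0.017 between the mutant groups. Without A15 the last 2 became 0.032 and -0.041. Without both A15 and A12, Dp1Tyb versus WT was 0.0015 and Dp1Tyb versus Dp1TybDyrk1a+/+/- was -0.030. Within lanes 3, 6 and 7 Dp1Tyb versus WT was 0.00061, 0.0066 and -0.060, the last resting on A12 alone. Without A15, Dp1TybDyrk1a+/+/- versus WT was 0.020, 0.023 and 0.035 within the 3 lanes, and Dp1Tyb versus Dp1TybDyrk1a+/+/- was -0.020, -0.017 and -0.095. Lanes 3 and 6 each held 1 Dp1TybDyrk1a+/+/- heart, and lane 7 held 1 Dp1Tyb heart. In whole hearts, fewer cells of a type and less RNA per cell cannot be told apart.

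**Figure D2:**
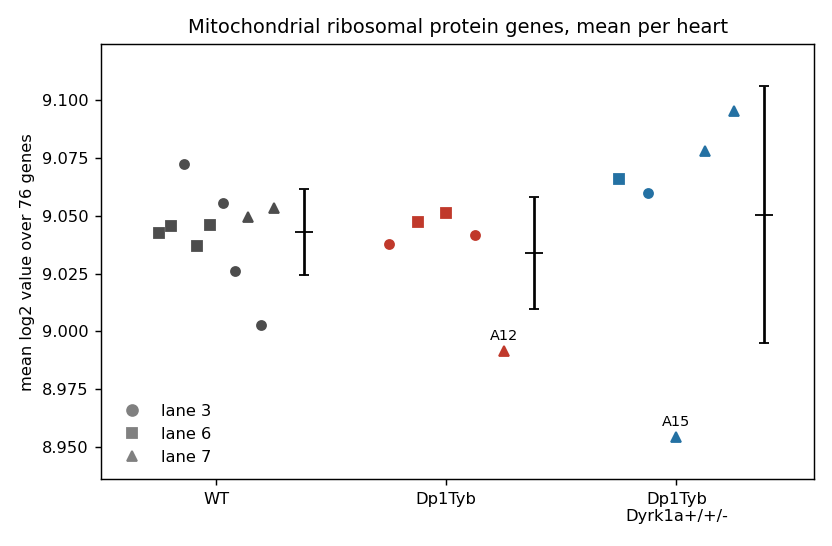
Mean log2 value over the 76 mitochondrial ribosomal protein genes in each heart (y axis) by genotype, with the mark showing the sequencing lane and the bar the group mean ± SD (n = 10, 5 and 5). WT hearts run from 9.003 to 9.073, and the lowest 2 hearts are A15 (8.954) and A12 (8.991).

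**Figure D3:**
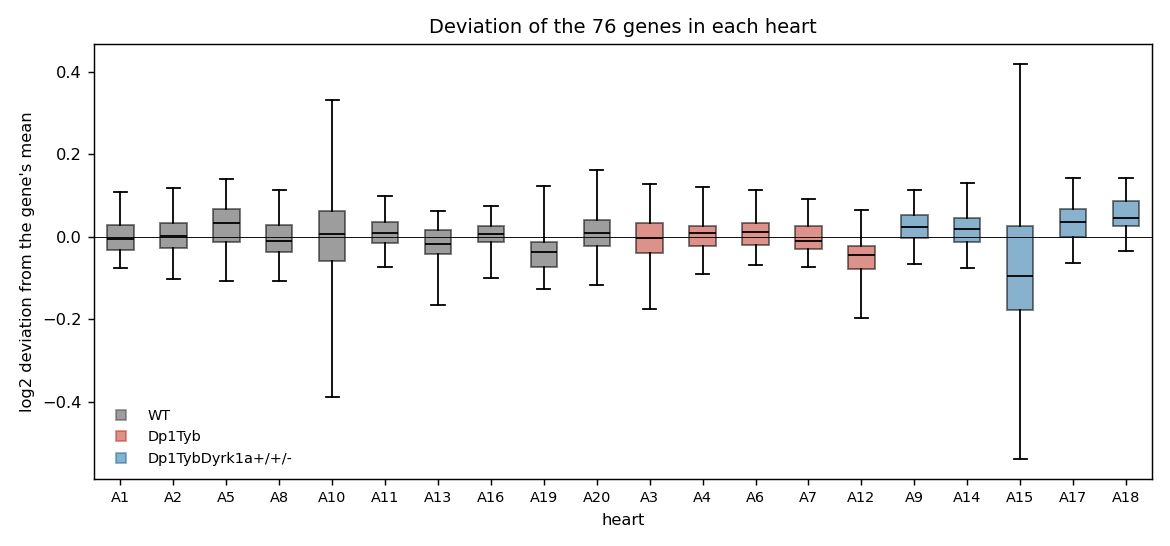
Deviation of each of the 76 genes from its mean over 20 hearts (log2), one box per heart, with the box at the quartiles, the line at the median and the whiskers at the lowest and highest gene. The median is furthest from 0 in A15 (-0.096) and A15 has the widest box, whereas the median of the other Dp1TybDyrk1a+/+/- hearts lies between 0.020 and 0.046.

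In Dp1Tyb versus WT hearts, none of the 76 genes passed the threshold (limma, Benjamini-Hochberg adjusted p under 0.05), where 3.08% of all genes tested did. At an unadjusted p under 0.05 there were 3, Mrps17, Mrpl51 and Mrpl15, against 15.6% of all genes. The median log2 fold change was -0.0082, against -0.0019 over all genes, and 30 of the 76 lay above 0. The log2 fold changes ran from -0.11 to 0.072. The median was -0.012 in the large subunit, where 16 of 48 lay above 0, and -0.0029 in the small subunit, where 14 of 28 did. By size, the lowest values were those of Mrpl42 (-0.11, adjusted p = 0.411), Mrps15 (-0.072, adjusted p = 0.661) and Mrpl51 (-0.065, adjusted p = 0.255). The highest were Mrps24 (0.072, adjusted p = 0.439), Mrps17 (0.052, adjusted p = 0.141) and Mrps23 (0.050, adjusted p = 0.530). Mrpl15, Mrps15, Mrps17 and Mrps24 have bacterial relatives, whereas Mrpl42, Mrpl51 and Mrps23 are found in mitochondrial ribosomes and not in bacteria. Without A15, 1 gene, Mrps17, passed the threshold, where 6.27% of all genes did. At an unadjusted p under 0.05 there were then 7, against 20.4%.

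Mrpl39 and Mrps6, subunits of the large and the small part of the same ribosome, are present in 3 copies in both mutant groups. How the deposited values were transformed is not named in the sources used here, and a transformation that shrinks differences would make log2 fold changes smaller than those of the counts, for these and for all other genes. Mrpl39 (ENSMUSG00000022889, chr16:84718281-84735244) lay between 9.62 and 9.97 in WT hearts with a median of 9.68, at 9.95, 9.99, 10.03, 10.03 and 10.06 in Dp1Tyb hearts and at 10.06, 10.10, 10.11, 10.13 and 10.25 in Dp1TybDyrk1a+/+/- hearts. The groups overlapped only through WT heart A10 (9.97) and Dp1Tyb heart A12 (9.95). The log2 fold change versus WT was 0.313 ± 0.043 (SE, limma adjusted p = 9.41e-05) in Dp1Tyb and 0.429 ± 0.043 (adjusted p = 9.33e-07) in Dp1TybDyrk1a+/+/- hearts. Mrps6 (ENSMUSG00000039680, chr16:92058336-92112227) lay between 8.73 and 8.88 in WT hearts with a median of 8.81, between 9.11 and 9.18 in Dp1Tyb and between 9.12 and 9.26 in Dp1TybDyrk1a+/+/- hearts, so all 10 mutant hearts lay above all 10 WT hearts (exact two-sided permutation p = 0.000333 for each group of 5 against 10). Its log2 fold changes were 0.345 ± 0.028 (adjusted p = 5.83e-08) and 0.378 ± 0.028 (adjusted p = 1.10e-08). Between the mutant groups, both of which have 3 copies, the log2 fold changes were -0.117 ± 0.050 for Mrpl39 (adjusted p = 0.215) and -0.032 ± 0.033 for Mrps6 (adjusted p = 0.612). Mrps6 shares 405 bases of identical transcript with its neighbour Slc5a3, and Mrpl39 stands next to Gabpa on chromosome 16. Gabpa rose by 0.299 ± 0.035 (adjusted p = 1.28e-05) in Dp1Tyb and by 0.440 ± 0.035 (adjusted p = 3.15e-08) in Dp1TybDyrk1a+/+/- hearts.

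For the genes in their usual copy number, the 95% interval of each log2 fold change was set against that of the less changed three-copy subunit. In Dp1Tyb versus WT the intervals of all 76 genes stayed inside ±0.313, the change of Mrpl39. In Dp1TybDyrk1a+/+/- versus WT they all stayed inside ±0.378, the change of Mrps6. The intervals stayed within ±0.2, a fold of 1.15 in the deposited values, for 73 of the 76 genes in each of these comparisons. If the transformation shrank differences, the fold in counts would be larger. Genes with the ETS letters in the promoter window had a median log2 fold change of -0.0049 in Dp1Tyb versus WT and of 0.018 in Dp1TybDyrk1a+/+/- versus WT, and those without them had -0.0073 and 0.012. Without A15 the values for Dp1TybDyrk1a+/+/- versus WT were 0.031 with the letters and 0.028 without them.

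**Figure D4:**
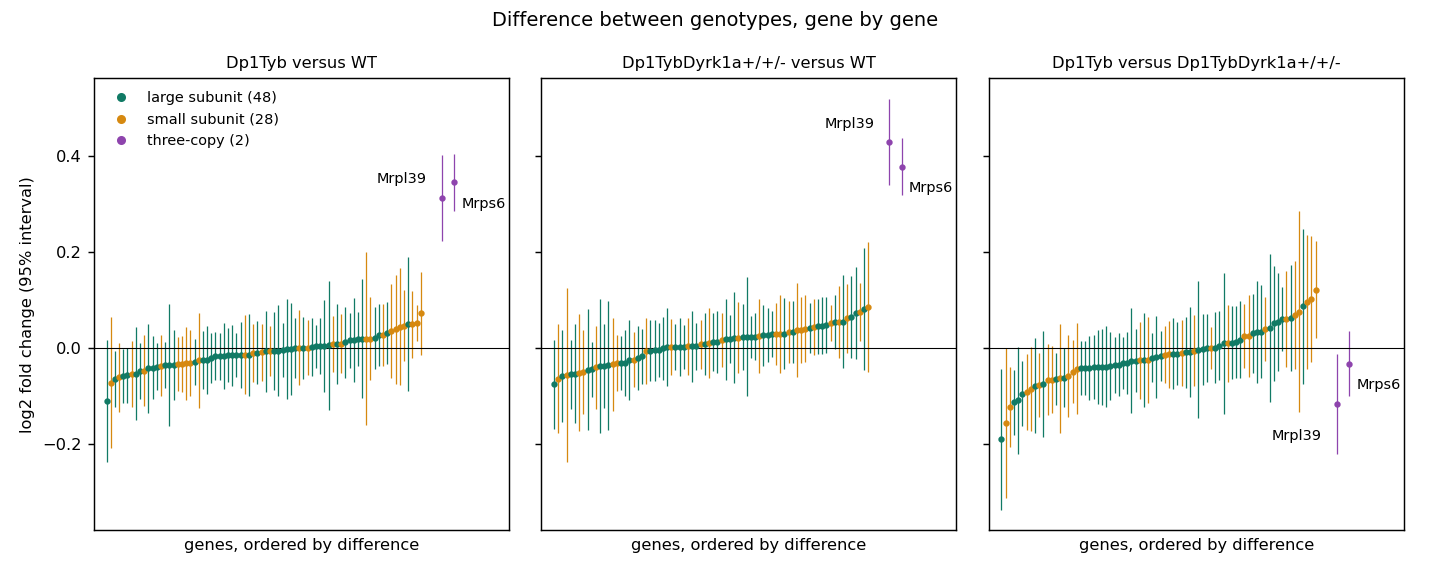
Log2 fold change of each of the 76 genes (y axis, with its 95% limma interval) in the 3 comparisons, ordered by size within each panel and coloured by subunit, with the three-copy Mrpl39 and Mrps6 at the right. Versus WT the three-copy genes lie at 0.313 to 0.429, and the 76 other genes lie between -0.11 and 0.085.

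Mrps17 (ENSMUSG00000034211, chr5:129715450-129718712) was the gene whose Dp1Tyb and WT hearts did not overlap. It lay between 9.78 and 9.82 in WT hearts with a median of 9.80, and at 9.84, 9.84, 9.85, 9.86 and 9.87 in Dp1Tyb hearts. The Dp1Tyb hearts were thus all higher, by a log2 fold change of 0.052 ± 0.018 (SE), which missed the threshold in the fit with all 20 hearts (limma adjusted p = 0.141) and passed it without A15 (adjusted p = 0.0324). The exact two-sided permutation test on this gene alone gave p = 0.000333, the smallest that 5 against 10 hearts can give and not adjusted for the choice of the gene. Such a gap was seen for 2.63% of all genes tested, and Mrps17 was 1 of 76. In Dp1TybDyrk1a+/+/- hearts Mrps17 lay at 9.85, 9.87, 9.88 and 9.88, all above WT, and at 9.78 in A15, within the WT range. Its log2 fold change versus WT was 0.052 ± 0.018 (adjusted p = 0.328), and 0.071 ± 0.015 (adjusted p = 0.0247) without A15. Within lanes 3, 6 and 7 the difference from WT was 0.064, 0.041 and 0.050 in Dp1Tyb hearts, the last resting on 1 Dp1Tyb heart. Mrps17 is therefore a gene with a small difference and a smaller spread, a fold of 1.04 in the deposited values of Dp1Tyb hearts.

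In Dp1TybDyrk1a+/+/- versus WT hearts, none of the 76 genes passed the threshold in limma, where 0.712% of all genes did, and 2 had an unadjusted p under 0.05, Mrps17 and Mrps25, against 9.64% of all genes. The median log2 fold change was 0.011, against -0.0030 over all genes, and 49 of 76 lay above 0, 30 of 48 in the large and 19 of 28 in the small subunit. The highest values were those of Mrps15 (0.085, adjusted p = 0.692), Mrpl42 (0.081, adjusted p = 0.687) and Mrps25 (0.075, adjusted p = 0.403). The lowest were Mrpl36 (-0.075, adjusted p = 0.604), Mrps16 (-0.064, adjusted p = 0.724) and Mrpl2 (-0.058, adjusted p = 0.697). Most of these values rested on A15. Without it the log2 fold change was 0.00037 for Mrps15, 0.0083 for Mrpl42, -0.014 for Mrpl36, 0.0010 for Mrps16 and 0.013 for Mrpl2, while Mrps25, which has no bacterial relative, stayed at 0.077.

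Without A15 the median log2 fold change of Dp1TybDyrk1a+/+/- versus WT was 0.029, with 64 of 76 genes above 0, where the median of all genes was -0.00083. In the same hearts the cytosolic ribosomal protein genes had a median of 0.055, with 78 of 82 above 0, cardiomyocyte markers of 0.087, with 8 of 9 above 0, and fibroblast and cushion markers of -0.091, with 1 of 6 above 0, and their part in the values of the 76 genes was not tested. Mrpl18 and Mrps17 then passed the threshold, where 0.908% of all genes did, and 13 had an unadjusted p under 0.05, against 12.7%. Mrpl18 (ENSMUSG00000057388, chr17:12911345-12917787) is a protein of the large subunit that is related to the bacterial protein holding the 5S rRNA. It lay between 9.997 and 10.14 in WT hearts with a median of 10.09, at 10.03, 10.05, 10.06, 10.09 and 10.10 in Dp1Tyb hearts, at 10.19, 10.20, 10.21 and 10.24 in 4 Dp1TybDyrk1a+/+/- hearts and at 9.89 in A15. These 4 hearts were higher than every WT and Dp1Tyb heart, and A15 was lower than every other heart. The log2 fold change versus WT was 0.065 ± 0.041 (SE, limma adjusted p = 0.628) with all hearts and 0.130 ± 0.023 (adjusted p = 0.00281) without A15. The difference between the 4 hearts and WT was 0.138, 0.121 and 0.102 within lanes 3, 6 and 7. Without A15 the Dp1TybDyrk1a+/+/- and WT hearts did not overlap for 3 of the 76 genes, Mrpl18, Mrps17 and Mrps23, against 1.32% of all genes. With A15 there was none, against 0.64%. Mrps23, a protein found only in mitochondrial ribosomes, had a log2 fold change of 0.088 ± 0.022 without A15 (adjusted p = 0.0734) and of 0.040 ± 0.034 with it (adjusted p = 0.718).

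**Figure D5:**
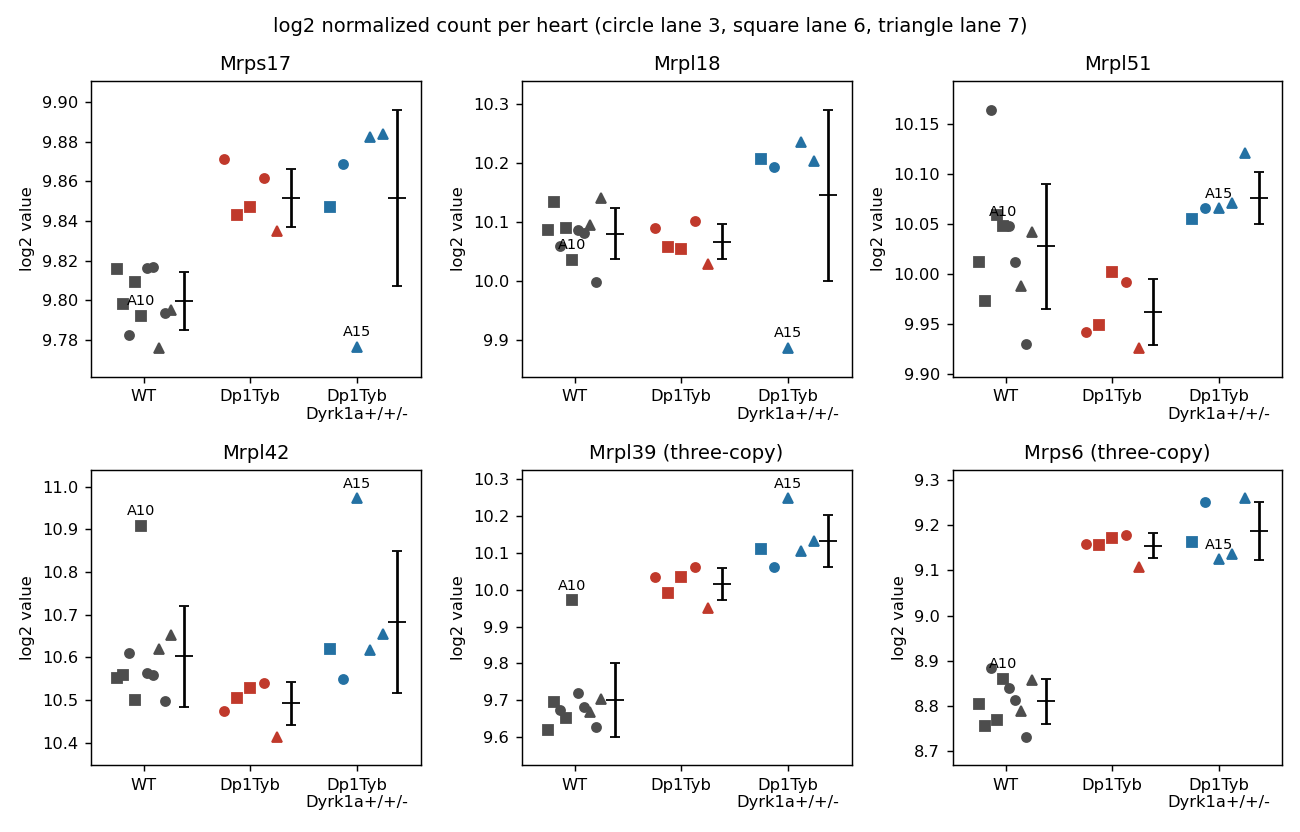
Log2 normalized count in each heart (y axis) for 4 mitochondrial ribosomal protein genes and the three-copy Mrpl39 and Mrps6, by genotype, with bars at the group mean ± SD (n = 10, 5 and 5) and hearts A10 and A15 named. Mrpl18 is at 10.19 to 10.24 in 4 of the Dp1TybDyrk1a+/+/- hearts and at 9.89 in A15, and Mrpl42 is highest in A15 (10.97) and A10 (10.91).

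In Dp1Tyb versus Dp1TybDyrk1a+/+/- hearts, whose labels differ in the third functional copy of Dyrk1a, none of the 76 genes passed the threshold in limma, where 1.16% of all genes did. At an unadjusted p under 0.05 there were 10 genes, against 18.5% of all genes. The median log2 fold change was -0.017, against 0.0028 over all genes, and 25 of 76 lay above 0, 15 of 48 in the large and 10 of 28 in the small subunit. The lowest values were those of Mrpl42 (-0.191, adjusted p = 0.157), Mrps15 (-0.157, adjusted p = 0.268) and Mrps36 (-0.123, adjusted p = 0.117). The highest were Mrps24 (0.122, adjusted p = 0.185), Mrps16 (0.102, adjusted p = 0.389) and Mrps7 (0.096, adjusted p = 0.452). The intervals of Mrpl42 and Mrps15 reached ±0.313, and those of the other 74 genes stayed inside it. Mrps36 is now known as a component of the 2-oxoglutarate dehydrogenase complex rather than of the ribosome, and its symbol is the older name.

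Mrpl51 (ENSMUSG00000030335, chr6:125192200-125194392), a large subunit protein without a bacterial relative, came closest to the threshold (adjusted p = 0.0804). It lay between 9.93 and 10.16 in WT hearts with a median of 10.03, at 9.926, 9.942, 9.949, 9.992 and 10.002 in Dp1Tyb hearts and at 10.056, 10.066, 10.066, 10.071 and 10.121 in Dp1TybDyrk1a+/+/- hearts. The 2 mutant groups did not overlap, and WT hearts, from 9.929 to 10.165, overlapped with both. The log2 fold change was -0.114 ± 0.032 (SE), and -0.116 ± 0.034 without A15 (limma adjusted p = 0.0894). Within lanes 3, 6 and 7 it was -0.099, -0.080 and -0.160, each resting on 1 heart in 1 of the groups.

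The Dp1Tyb and Dp1TybDyrk1a+/+/- hearts did not overlap for 7 of the 76 genes, all lower in Dp1Tyb, namely Mrpl40, Mrpl41, Mrpl42, Mrpl51, Mrps5, Mrps15 and Mrps36. This was so, in either direction, for 5.65% of all genes. Without A15 there were 14, again all lower in Dp1Tyb, against 8.66% in either direction. Mrpl40, which lies on chromosome 16 (chr16:18872018-18876637) outside the duplicated region, was at 8.833, 8.845, 8.858, 8.892 and 8.898 in Dp1Tyb and at 8.914, 8.924, 8.955, 8.998 and 9.012 in Dp1TybDyrk1a+/+/- hearts. Its log2 fold change was -0.096 ± 0.032 (adjusted p = 0.129). Mrpl42 was at 10.41, 10.47, 10.50, 10.53 and 10.54 in Dp1Tyb hearts and at 10.55, 10.62, 10.62, 10.65 and 10.97 in Dp1TybDyrk1a+/+/- hearts, the highest being A15. Its log2 fold change was -0.191 ± 0.070, and -0.118 ± 0.058 (adjusted p = 0.286) without A15.

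Without A15 the median log2 fold change of Dp1Tyb versus Dp1TybDyrk1a+/+/- was -0.038, with 13 of 76 genes above 0, where the median of all genes was 6.8e-05. The cytosolic ribosomal protein genes, which serve the other ribosome of the cell, had a median of -0.056 in the same hearts, with 14 of 82 above 0 and none past the threshold. Cardiomyocyte markers had a median of -0.104 and fibroblast and cushion markers of 0.181, with no call in either list, and their part in the values of the 76 genes was not tested. At an unadjusted p under 0.05 there were 16 of the 76, against 17.9% of all genes. Mrpl18 passed the threshold, where 1.31% of all genes did, with a log2 fold change of -0.143 ± 0.026 (adjusted p = 0.0102), against -0.078 ± 0.047 (adjusted p = 0.381) with all hearts. The 4 Dp1TybDyrk1a+/+/- hearts were those given for Mrpl18 before, all above the 5 Dp1Tyb hearts.

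The bacterial ribosomal protein S18 has 3 relatives in this ribosome. Mrps18b and Mrps18c belong to the small subunit, whereas the protein of Mrps18a sits in the large subunit despite its name. The 28 genes given as small subunit were taken by symbol, so they include Mrps18a and Mrps36. In WT hearts Mrps18a was at 8.78 ± 0.043 (SD, n = 10), Mrps18b at 8.60 ± 0.052 and Mrps18c at 8.58 ± 0.062. None passed the threshold in any comparison, and their log2 fold changes versus WT were -0.0092, 0.027 and -0.014 in Dp1Tyb and 0.0020, 0.033 and 0.029 in Dp1TybDyrk1a+/+/- hearts, or 0.021, 0.015 and 0.079 without A15.

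Subunits of the ribosome that do not carry an Mrpl or Mrps symbol were measured beside the 76 genes. Of the 5 listed (Dap3, Aurkaip1, Chchd1, Ptcd3 and Gadd45gip1), none passed the threshold with all hearts. At an unadjusted p under 0.05 there were 2 in Dp1Tyb versus WT (Dap3 and Aurkaip1), against 15.6% of all genes. There were 0 in the other comparison with WT, against 9.64%, and 2 between the mutant groups (Chchd1 and Ptcd3), against 18.5%. Dap3, a GTP-binding protein of the small subunit, had a log2 fold change of 0.106 in Dp1Tyb versus WT. Its limma adjusted p was 0.266 with all hearts and 0.0405 without A15, where 6.27% of all genes were called. The others lay between -0.037 and 0.078 in this comparison.

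The genes that make, load and drive the ribosome were counted list by list, first for the comparisons of Dp1Tyb and of Dp1TybDyrk1a+/+/- hearts with WT and then for the comparison of both mutant groups. Of 28 assembly factors none was called with all hearts, with medians of -0.0039, -0.020 and 0.0064, of which the last 2 turned to 0.0092 and -0.019 without A15. Of 16 translation factors none was called, with medians of -0.024, 0.0090 and -0.026, the last 2 being 0.027 and -0.042 without A15. Of 17 mitochondrial aminoacyl-tRNA synthetases, which load the tRNAs, none was called with all hearts, with medians of -0.0063, -0.026 and 0.032, of which the last 2 turned to 0.021 and -0.025 without A15. Of 19 genes of mitochondrial transcription and RNA processing, 1 was called, Pnpt1, which encodes the polynucleotide phosphorylase of mitochondria. It was lower in Dp1Tyb than in Dp1TybDyrk1a+/+/- hearts, with a log2 fold change of -0.120 ± 0.029 (limma adjusted p = 0.0460). Without A15 the log2 fold change was -0.105 (adjusted p = 0.0697). With all hearts 1.16% of all genes were called between these groups. At an unadjusted p under 0.05 the shares over all genes were 15.6%, 9.64% and 18.5%. The assembly factors had 3 (10.7%), 1 (3.57%) and 3 (10.7%) genes and the translation factors 0, 0 and 3 (18.75%). The synthetases had 0, 2 (11.8%) and 1 (5.88%), and the transcription and processing genes 1 (5.26%), 4 (21.1%) and 4 (21.1%).

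The proteins that this ribosome makes are the 13 encoded by mitochondrial DNA. Their RNAs varied far more between hearts than the ribosomal protein genes, with a mean over the list of 14.67 to 15.33 in WT, 14.61 to 14.85 in Dp1Tyb and 14.72 to 15.76 in Dp1TybDyrk1a+/+/- hearts, the highest being A15. The median log2 fold change was -0.155 in Dp1Tyb versus WT, 0.243 in Dp1TybDyrk1a+/+/- versus WT and -0.400 between the mutant groups, and without A15 the last 2 were 0.033 and -0.174. In the last comparison 1 of the 13 was called, mt-Nd6, where 1.16% of all genes were. It encodes a subunit of complex I, the one protein encoded on the light strand. Its log2 fold change was -0.374 ± 0.076 (limma adjusted p = 0.0231), and -0.341 (adjusted p = 0.0330) without A15. At an unadjusted p under 0.05 there were 1 (7.69%), 2 (15.4%) and 8 (61.5%) of the 13 in the 3 comparisons. Over all genes these shares were 15.6%, 9.64% and 18.5%. Between the mutant groups there were 5 (38.5%) without A15, against 17.9% of all genes. Of 82 cytosolic ribosomal protein genes 1 was called between the mutant groups with all hearts, Rpl21 (-0.157, adjusted p = 0.0460, and 0.0578 without A15). Among 8 regulators of nuclear genes for mitochondria, such as Nrf1, Yy1, Esrra and Ppargc1a, Gabpa alone was called with all hearts, in both comparisons with WT.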

How the data were processed

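RNA was extracted from 20 snap-frozen hearts and mRNA libraries were sequenced. The submitters' processing notes name Trimmomatic 0.36, STAR 2.5.2a, RSEM 1.2.31, DESeq2 and GRCm38. The authors deposited 1 table of log2 normalized counts, from -2.31 to 18.97. The transformation is not named in the sources used here. The depth per heart is unknown, and precision rests on the spread between hearts. Columns given to no sample numbered 0.

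The authors tested counts with DESeq2, and since the deposited values are log2, limma 3.58.1 (R 4.3.3, eBayes with trend) was fitted here to all 20 hearts and the 15304 genes whose mean normalized count reached 10, with Benjamini-Hochberg adjustment over all of them and a threshold of 0.05, two-sided. The fit was tested on simulated data with independent noise for each gene. These held no heart like A15 and no lane effect, so that test does not cover them. Each comparison with WT used all 10 WT hearts, since the labels give no litters. A limma p-value sets a difference against the spread between hearts within all genotypes, moderated over all genes tested. With only the hearts of both mutant groups in the fit, 0.0196% of all genes were called between them, against 1.16%. Exact permutation tests over hearts were run for single genes. The 2 comparisons with WT share their WT hearts, and each mutant group enters 2 comparisons. Symbols, gene types and transcript lengths came from GENCODE M39 (44565 genes named), positions and promoters from RefSeq on GRCm38.p6, and near-identical copies from BLAST+ 2.17.0 (at least 95% identity over 300 bases).

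The genes and lists were chosen with earlier results of these data known. The genes named were those past the threshold or else the 3 highest and 3 lowest log2 fold changes, the extremes of level and WT SD, the three-copy subunits, those under other names, genes whose call changed without A15, called genes of other lists (the call of 1 of them without A15 is not reported here), and the Mrps18 relatives. Mrpl51, Mrpl40, Mrpl15 and the genes whose groups did not overlap were named after their values were seen. Alternatives were other filters, scalings and moderation, weights per heart, lane as a covariate, length and GC curves, and leaving out each heart.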

Additional observations from a re-analysis of the deposited data

Results flagged for a closer look

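The genes checked were chosen with these data known and share their hearts, so the number of flags was no test against chance. Of 27 groups of hearts checked, 9 held a heart far from the rest by Dixon's test at a level of 1 in 20. For the mean over the 76 genes these were A12 among the Dp1Tyb hearts (8.991, next heart 9.038) and A15 among the Dp1TybDyrk1a+/+/- hearts (8.954, next heart 9.060). Without A12 and A15 the mean was 9.045 ± 0.006 (SD, n = 4) in Dp1Tyb and 9.075 ± 0.016 (n = 4) in Dp1TybDyrk1a+/+/- hearts. Both hearts were flagged on this same mean, so the smaller SDs follow from leaving them out.

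Among single genes, A15 was the low heart for Mrpl18 (9.89) and the high heart for Mrpl42 (10.97) and Gabpa (11.85) within Dp1TybDyrk1a+/+/-. A10 was the high WT heart for Mrpl39 (9.97), Mrpl42 (10.91) and Gabpa (11.39). For Mrpl51 the high heart was A18 within Dp1TybDyrk1a+/+/- (10.12). Mrpl42 and Gabpa were thus high in both A10 and A15, the 2 hearts in which the mitochondrially encoded genes stood highest (0.505 and 1.13 above their means); the part of RNA quality in these values was not tested.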

How the results depend on the processing

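Each of 3 counts of called genes was recomputed under 36 other settings, and the differences of the mean over the 76 genes within lanes too. Of these results 186 stayed within 1.5 times of the main count or within 1 SD of the main difference and 21 moved. With weights per heart (A15 at 0.0941, A10 at 0.258) the counts were 1 and 2 in the comparisons of Dp1Tyb and of Dp1TybDyrk1a+/+/- hearts with WT and 7 between the mutant groups (9.29%, 2.23% and 8.15% of all genes), where equal weights gave 0 in each, and the 7 were Mrpl18, Mrpl24, Mrpl40, Mrpl42, Mrpl48, Mrpl51 and Mrps36, all lower in Dp1Tyb. Leaving out each heart in turn gave 0 to 1, 0 to 2 and 0 to 1. The count changed without A15 (1, 2 and 1, against 6.27%, 0.908% and 1.31% of all genes). In the last comparison it also changed without WT heart A5 (Mrpl51 called, against 0.987% of all genes). Without WT heart A10 Mrps36 was called there, where 2.64% of all genes were. Chosen after seeing the data, the fits without A15 gave 1, 2 and 1 with lane as a covariate (6.67%, 0.765% and 0.588% of all genes) and 1, 2 and 1 with a length and GC curve removed (5.45%, 0.936% and 0.462%), those without A12 and A15 gave 1, 3 (Mrps23 added) and 1 (4.48%, 0.921% and 0.595%), and those without A10 and A15 gave 1, 2 and 6 (7.70%, 1.39% and 3.96% of all genes), the 6 being Mrpl18, Mrpl24, Mrpl42, Mrpl48, Mrps18c and Mrps36. The mean over the 76 genes in Dp1Tyb versus WT moved to -0.060 within lane 7, where A12 is the only Dp1Tyb heart. Left out heart by heart, the difference of the mean ran from -0.014 to 0.0015, from -0.0037 to 0.032 and from -0.041 to -0.0055 in the 3 comparisons, and its sign turned without A12 in the first and without A18 in the second. Mrpl39 and Mrps6 stayed called versus WT in all 37 settings in both genotypes. Among the 76 genes, Mrpl39 and Mrps6, no difference with a call in at least 1 setting changed sign. For these differences, 39 results under other settings passed the threshold where the main fit had missed it, and 573 did not change their call. Of the 39, 1 was three-copy Mrpl39 between the mutant groups. The differences were listed because of a call in at least 1 setting, and the share of all genes called also changed with the setting. Some genes without a call did change sign, such as Mrps16 and Mrpl2 without A15 in Dp1TybDyrk1a+/+/- versus WT. No paired analysis was possible because the labels give each heart its own running number, with no number shared between genotypes. The cause of these shifts was not tested. Depth is unknown, so a call missed for want of reads cannot be told apart from one missed for want of hearts.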

Other observations

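Some genes of the related lists were called only without A15. In Dp1Tyb versus WT these included Nsun4, which modifies the small subunit's rRNA and helps to join the subunits (log2 fold change 0.089, limma adjusted p = 0.0362), Dap3, given above, and Gabpb1, the partner of GABPA (-0.090, adjusted p = 0.0468). In Dp1Tyb versus Dp1TybDyrk1a+/+/- these included Gtpbp10, a GTPase of large subunit assembly (-0.132, adjusted p = 0.0408), and the macrophage marker Lyve1 (0.294, adjusted p = 0.0324).

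Of the 6 processed pseudogenes with an Mrpl or Mrps symbol in the table, Mrpl23-ps1 alone passed the filter, with a mean normalized count of 366, above the 49.6 of Mrpl23 itself. The others were at 0.302 to 5.84.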
